A study of Homo sapiens with 6 samples.

Results

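The 44 genes described here encode the steps that take up glucose, break it down to pyruvate and lactate, convert hexose phosphates into each other, run the pentose phosphate pathway and build or break down glycogen. They were chosen by name as glycolysis and sugar phosphate genes, with PGM2L1 among them and with earlier results of these data known. They make up 44 of the 35580 genes to which transcripts of the deposited tables could be joined. Of the 44, 43 were among the 15223 genes abundant enough to be tested. The remaining one, PFKFB2, a regulator of phosphofructokinase, lay between 0.0463 and 0.156 CPM (counts scaled to a common library total) and was not tested.

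The cells were Rh30, an established alveolar rhabdomyosarcoma line positive for the fusion of PAX3 with FOXO1 (PAX3-FOXO1), which all libraries share. Polyadenylated RNA was sequenced from 3 control libraries and from 3 libraries of cells in which DDX5, an RNA helicase, was knocked down (siDDX5), described by the submitters as biological replicates of 1 cell line. The labels give neither the time after knock-down nor the treatment that the control cells received. The comparison asks which transcripts differ when DDX5 is low.

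Glycolysis splits glucose into pyruvate, which pyruvate kinase forms in the last step and lactate dehydrogenase turns into lactate. Glucose 6-phosphate can instead enter the pentose phosphate pathway, or be turned into glucose 1-phosphate by a phosphoglucomutase on the way to glycogen and nucleotide sugars. PGM2L1 is the odd member of the mutase family: its enzyme makes glucose 1,6-bisphosphate, the sugar that phosphohexomutases need as a cofactor.

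The libraries held 18202402 to 26156858 estimated counts. DDX5 itself was at 1352, 1434 and 1137 CPM in control replicates 1, 2 and 3, and at 549, 504 and 396 CPM in siDDX5 replicates 1, 2 and 3, a log2 fold change of -1.44 ± 0.15 (SE; adjusted p = 0.0106, edgeR quasi-likelihood test). Summed over 8 markers of the muscle lineage, levels were 1203 to 1729 CPM in the 6 libraries, and over 9 markers of blood, endothelium, epithelium and fibroblasts they were 30.0 to 47.3 CPM. The replicate 3 libraries of both groups stood apart from the other 4 on the first principal component of all tested genes, which held 31.4% of the variance, so values without them are given where a result rests on them. In bulk RNA, fewer cells expressing a gene and less RNA per cell cannot be told apart.

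Of the 43 tested genes, PGM2L1 rose after DDX5 knock-down and no other passed the test. Its gene (ENSG00000165434.7) lies on the minus strand at chr11:74330318-74398473 in GRCh38. The 250 bases before its RefSeq start (chr11:74398434-74398683, minus strand, GRCh38.p14) are printed because this is the member that rose with the knock-down.
PGM2L1 promoter: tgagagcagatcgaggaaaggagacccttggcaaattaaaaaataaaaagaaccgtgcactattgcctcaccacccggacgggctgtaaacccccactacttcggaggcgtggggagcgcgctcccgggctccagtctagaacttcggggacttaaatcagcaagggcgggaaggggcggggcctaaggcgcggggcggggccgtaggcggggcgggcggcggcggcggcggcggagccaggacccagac
PGM2L1 was at 72.7, 77.3 and 83.3 CPM in control replicates 1, 2 and 3 and at 161, 173 and 167 CPM in siDDX5 replicates 1, 2 and 3. Every knock-down library was above every control library. The group means were 77.8 ± 5.33 and 167 ± 6.15 CPM (SD, n = 3 each). The difference amounted to 1.10 ± 0.10 on the log2 scale (SE; adjusted p = 0.0106, edgeR). In TPM, the deposited unit that corrects for transcript length and sums to the same total in every library, the means were 19.1 and 39.0. Nearly all of these counts fell on a single transcript, ENST00000298198.5, with at least 99.7% of the gene's counts in each library.

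Over all tested genes, 25 were called (0.164%), with 8 higher in siDDX5 (0.0526%) and 17 lower (0.112%). With the replicate number as a block, 394 were called (2.59%), 173 higher (1.14%) and 221 lower (1.45%), and the members called were PGM2L1 and the glucose transporter SLC2A3, both higher in siDDX5. PGM2L1 did not pass without control replicate 1 (log2 fold change 1.06, adjusted p = 0.0955, edgeR) or without siDDX5 replicate 1 (1.13, adjusted p = 0.0655, edgeR), settings in which edgeR called 0 genes, with 1245 and 2042 at an unadjusted p under 0.05. Without both replicate 3 libraries its log2 fold change was 1.16 (adjusted p = 0.0331, edgeR). With limma-trend on log2(TPM + 1) it was 1.00 (adjusted p = 0.0646) and with log2(TPM + 0.1) 1.03 (adjusted p = 0.0739).

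**Figure D1:**
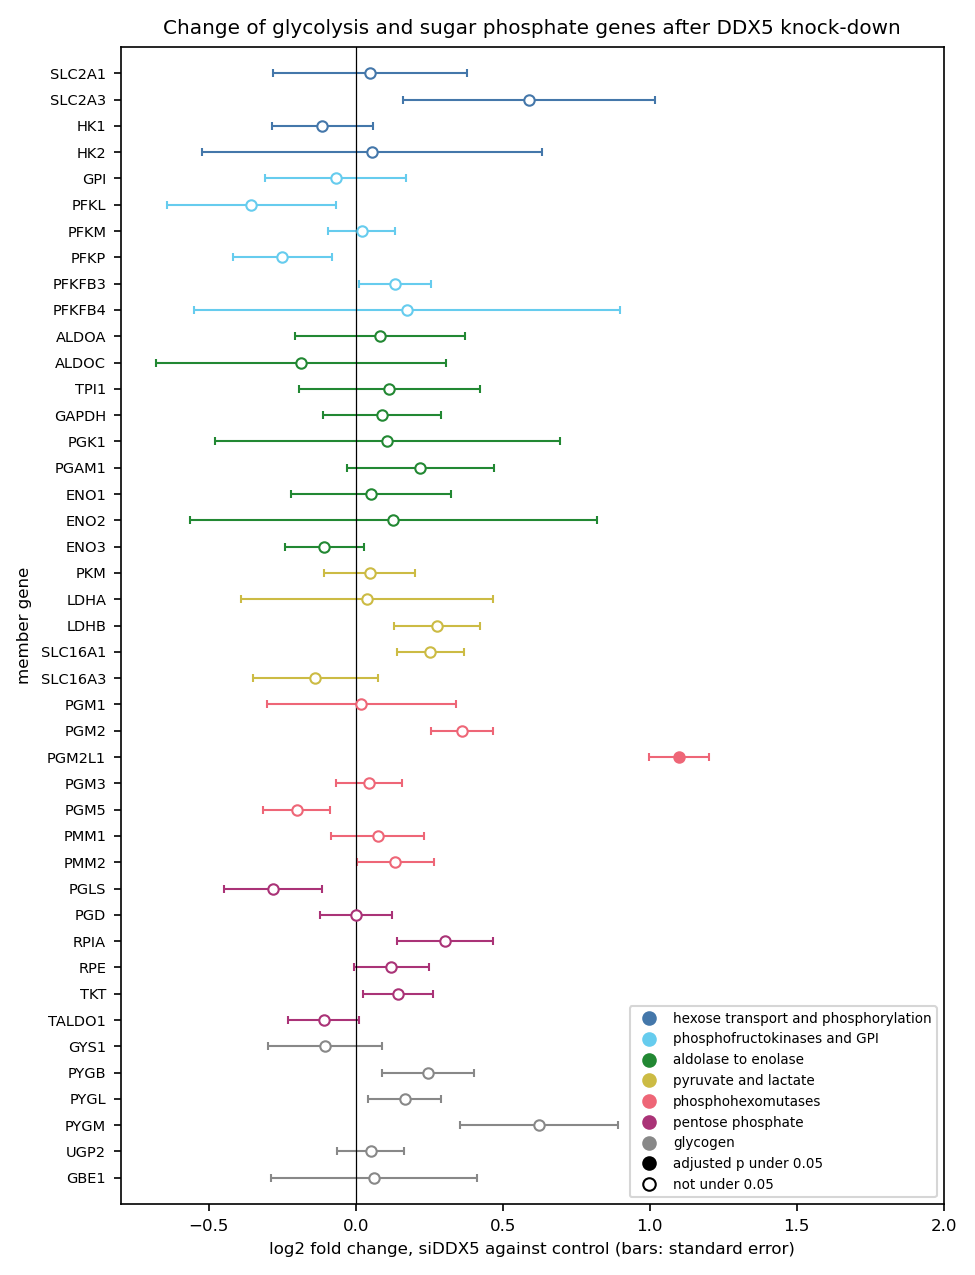
Log2 fold change of each of the 43 tested genes, siDDX5 against control, with its standard error as a bar, coloured by role. PGM2L1, at 1.10, is the filled point with an adjusted p under 0.05, and the other 42 lie between -0.36 and 0.62.

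Among the other phosphohexomutases, which move a phosphate between positions of a hexose, the values were smaller. PGM2, which acts on pentose and hexose phosphates, was at 74.6, 83.5 and 77.7 CPM in control and 94.6, 110.1 and 98.2 CPM in siDDX5 libraries. All 3 siDDX5 values lay above all 3 control values, and the log2 fold change of 0.36 ± 0.11 (SE) had an unadjusted p of 0.00711 but an adjusted p of 0.249 (edgeR). With the block its adjusted p was 0.0531.

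PGM1, the main phosphoglucomutase of glycogen metabolism, was at 90.8, 63.4 and 140.5 CPM in control and 74.1, 75.1 and 149.6 CPM in siDDX5. Its groups overlapped, and replicate 3 was the highest in both. PGM3, which acts on N-acetylglucosamine phosphate for nucleotide sugars, was at 111, 133 and 137 CPM in control and 126, 135 and 131 CPM in siDDX5.
The direction of PGM3 depended on the scale, since its mean TPM was 122 in control and 99.4 in siDDX5 (log2 fold change 0.05 in counts and -0.29 with limma-trend on log2(TPM + 1), neither past the threshold). PMM1, a phosphomannomutase, was at 11.4, 9.58 and 9.49 CPM in control and 10.9, 11.8 and 9.35 CPM in siDDX5. Its partner PMM2, needed to make mannose 1-phosphate for glycosylation, was at 62.0, 64.3 and 51.1 CPM in control and 65.7, 72.3 and 56.8 CPM in siDDX5. Both pairs of groups overlapped. PGM5, a family member of muscle with no known mutase activity, had log2 fold change -0.20 ± 0.11 (SE, adjusted p = 0.539, edgeR). Its value is uncertain, because 25.1% of the counts on PGM5 and the pseudogenes named after it lay on the pseudogenes.

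**Figure D2:**
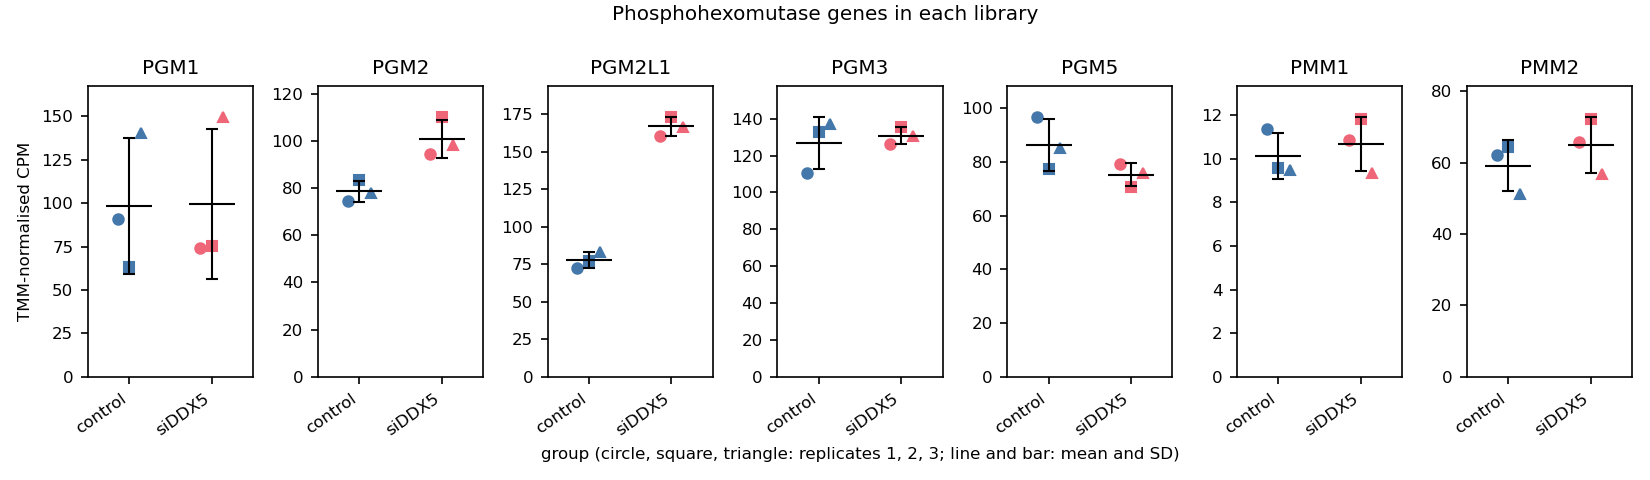
TMM-normalised CPM (scaled between libraries) of the 7 phosphohexomutase genes in each library, with replicates 1, 2 and 3 as circle, square and triangle and the mean and SD of each group. The PGM2L1 and PGM2 groups do not overlap, and PGM1 is highest in replicate 3 of both groups.

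In glucose uptake and phosphorylation, SLC2A3, a glucose transporter, was at 20.9, 24.8 and 57.5 CPM in control and 31.6, 38.6 and 85.1 CPM in siDDX5. Each siDDX5 library was above the control library with the same number, by log2 ratios of 0.60, 0.64 and 0.57, although the groups overlapped. The log2 fold change was 0.59 ± 0.43 (SE, adjusted p = 0.639, edgeR) and, with the replicate block, 0.60 (adjusted p = 0.0123, edgeR). Its value was 1.18 without control replicate 3 and 0.04 without siDDX5 replicate 3. Without both, it was 0.62 (adjusted p = 0.443, edgeR).

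SLC2A1, the main glucose transporter of growing cells, was at 116, 103 and 199.8 CPM in control and 91.5, 118 and 224 CPM in siDDX5. HK1, the widely expressed hexokinase that traps glucose as glucose 6-phosphate, was at 127, 117 and 172 CPM in control and 109, 122 and 155 CPM in siDDX5. HK2, the hexokinase of muscle and many tumours, was at 96.0, 93.9 and 313 CPM in control and 94.8, 87.6 and 340.0 CPM in siDDX5. In all 3 genes the groups overlapped and replicate 3 was highest in each group.

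The phosphofructokinases (PFKL, PFKM and PFKP) and the tested PFKFB regulators set the step that commits sugar to glycolysis, and GPI was grouped with them. None of the 6 tested passed, with log2 fold changes from -0.36 (PFKL) to 0.17 (PFKFB4). PFKL, the liver form, was the member with the lowest fold change of all 43 (adjusted p = 0.686, edgeR).

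From aldolase to enolase, 9 genes were tested and none passed, with log2 fold changes from -0.19 to 0.22. GAPDH, the glyceraldehyde 3-phosphate dehydrogenase often used as a reference gene, was at 4376, 3309 and 4870.4 CPM in control and 3312, 4632 and 5409 CPM in siDDX5. Its groups overlapped over nearly their whole range. Per length it was the most abundant of the 44, with a mean of 5000 TPM over the 6 libraries, ahead of ENO1 at 2266, PKM at 2226, LDHB at 2130 and TPI1 at 1306.

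In pyruvate and lactate metabolism, none of 5 genes passed. PKM, the pyruvate kinase of most tissues, was at 3367, 2502 and 3391 CPM in control and 2775, 3215 and 3571 CPM in siDDX5. LDHA, the lactate dehydrogenase subunit that favours lactate formation, was at 654, 565 and 1452 CPM in control and 559, 635 and 1548 CPM in siDDX5. LDHB, the other subunit, was at 1155, 1266 and 1127 CPM in control and 1202, 1737 and 1354 CPM in siDDX5. All 3 pairs of groups overlapped. SLC16A1, a lactate transporter, came near the unadjusted threshold with a log2 fold change of 0.25 ± 0.11 (SE; adjusted p = 0.444, edgeR).

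None of the 6 pentose phosphate genes passed, from -0.28 (PGLS) to 0.30 (RPIA) in log2 fold change. Of the 6 glycogen genes none passed. PYGM, the muscle glycogen phosphorylase, was low, at 2.00 ± 0.541 CPM in control and 3.07 ± 0.486 CPM in siDDX5 (SD, n = 3 each), without overlap, and had a log2 fold change of 0.62 ± 0.27 (SE, adjusted p = 0.426, edgeR). UGP2, which makes UDP-glucose for glycogen and glycosylation, was at 121, 110.4 and 127 CPM in control and 115, 118 and 139 CPM in siDDX5. Its groups overlapped.

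As a set, 32 of the 43 genes had a positive and 11 a negative fold change, and the median log2 fold change was 0.06, against 0.00 for all tested genes. In 3 of the 43 (PGM2, PGM2L1 and PYGM) all siDDX5 libraries were above all control libraries, and in none below. Over all tested genes the groups did not overlap for 18% (8.87% above and 9.16% below). An unadjusted p under 0.05 was found for the same 3 members, against 11.4% of all tested genes, and with the block for 11, against 20.5%. The DESeq2 Wald test called PGM2L1 and no other member.

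More members were called for the replicate number than for the group, 16 against 2 in the edgeR model that holds both terms. In the plot of members by library, the third library of each group is high for a block of genes that runs from glucose transport to lactate formation. A term for the replicate number, tested in an edgeR model with group and replicate after the pattern had been seen, was called for 523 of 15223 genes (3.44%), of which 398 (2.61%) were higher and 125 (0.821%) lower in replicate 3. The test of this term asked for any difference among the replicate numbers, not for replicate 3 alone. The direction and log2 difference given for replicate 3, with its SE, came from a separate contrast against the mean of the other replicates. The p of the term is therefore not a test of that contrast. The term was called for 16 of the 43 members, all higher in replicate 3.
By role these were 3 of 4 transport and hexokinase genes (SLC2A1, SLC2A3, HK2), 3 of 6 around phosphofructokinase (GPI, PFKL, PFKFB4) and 7 of 9 from aldolase to enolase (ALDOA, ALDOC, TPI1, PGK1, PGAM1, ENO1, ENO2). LDHA, PGM1 and GBE1, the glycogen branching enzyme, were the single genes called in pyruvate and lactate metabolism (1 of 5), the mutases (1 of 7) and glycogen metabolism (1 of 6). None of the 6 pentose phosphate genes was called.

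**Figure D3:**
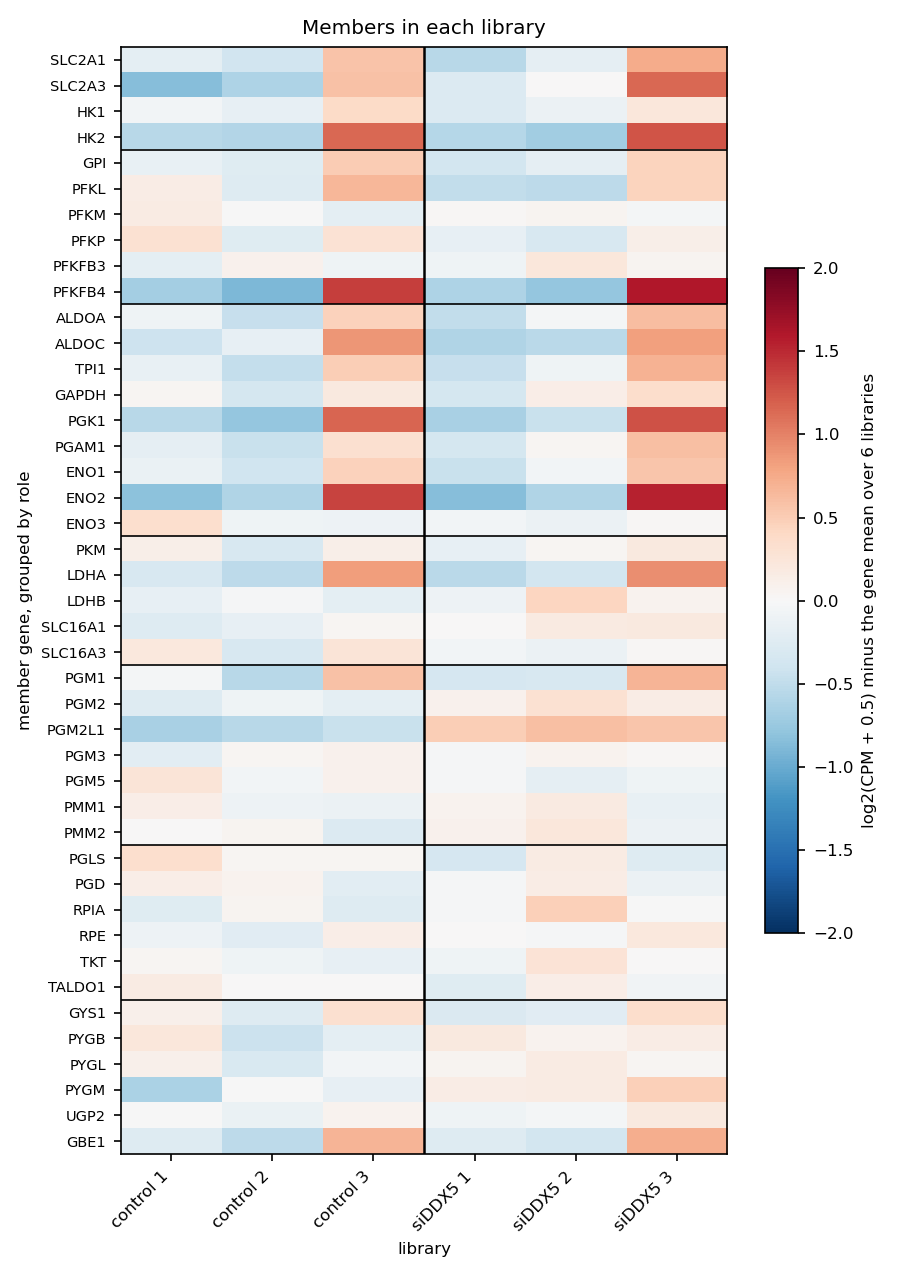
Log2(CPM + 0.5) of each tested gene minus its mean over the 6 libraries, with genes grouped by role and libraries in columns. PFKFB4, ENO2, PGK1 and HK2 are red in replicate 3 of both groups, while PGM2L1 is blue in control and red in siDDX5 libraries.

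The 4 members with the greatest replicate 3 difference, picked after their values were seen, were PFKFB4, ENO2, PGK1 and HK2. PFKFB4, which makes and removes the activator of phosphofructokinase, was at 15.4, 13.2 and 66.4 CPM in control and 16.1, 14.4 and 76.8 CPM in siDDX5. Replicate 3 was therefore higher than replicates 1 and 2 in both groups, by 4.85-fold in the joint fit (log2 2.28 ± 0.09 SE; adjusted p of the replicate term 2.03e-05, edgeR).
ENO2, the neuronal enolase, was at 56.3, 65.1 and 254 CPM in control and 54.7, 65.6 and 289.7 CPM in siDDX5. Its replicate 3 log2 difference was 2.17 ± 0.09 (SE; adjusted p of the replicate term 2.03e-05, edgeR). PGK1, the phosphoglycerate kinase that yields ATP, was at 661, 569.5 and 2187 CPM in control and 618, 716 and 2346 CPM in siDDX5. Its replicate 3 log2 difference was 1.82 ± 0.12 (SE; adjusted p of the replicate term 0.000181, edgeR). For HK2 the difference was 1.81 ± 0.09 (SE; adjusted p of the replicate term 4.54e-05, edgeR). In these 4 genes the lower 4 libraries lay close together and both replicate 3 libraries stood far above them.

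For the other 12 called members the fold in replicate 3 ran from 1.61 (PGAM1) to 2.71 (ALDOC, an aldolase). Replicate 3 was the highest library in both groups for 24 of 43 members (55.8%) against 19.4% of all tested genes, and the lowest in both for 4 against 17.8%. PGM2L1 itself did not follow this pattern, with a replicate 3 log2 difference of 0.08 ± 0.09 (SE; adjusted p of the replicate term 0.678, edgeR). Summed over the 44 genes, the share of all TPM was 1.71%, 1.47% and 2.27% in control replicates 1, 2 and 3 and 1.54%, 1.64% and 2.40% in siDDX5.

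The same members were high in replicate 3 of each group. Across the 43 genes, the log2 ratio of replicate 3 to replicates 1 and 2 correlated between control and siDDX5 libraries with Pearson r = 0.984, against 0.651 across all 15223 genes, where points share libraries and depth, and genes are not independent replicates. The titles give the replicate numbers and do not say whether libraries with the same number were grown or prepared together. Replicate number, culture and preparation cannot be told apart. Of the 8 muscle lineage markers, the replicate term was called for MYOD1, a myogenic transcription factor. It was at 206, 223 and 149.8 CPM in control and 179, 226 and 147 CPM in siDDX5, lowest in replicate 3 of both groups, with a replicate 3 log2 difference of -0.49 (adjusted p of the replicate term 0.0453, edgeR). The other 7 ranged from -0.26 to 0.30 in the same contrast, and the part of such a difference in the members' values was not tested. HK2, PFKFB4, PGK1, ENO2 and LDHA were called for the replicate term in every setting tried. ALDOA, PGAM1 and ENO1 lay close to the threshold (adjusted p = 0.0492, 0.0487 and 0.0492, edgeR) and were lost in 7 of 15 settings each.

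**Figure D4:**
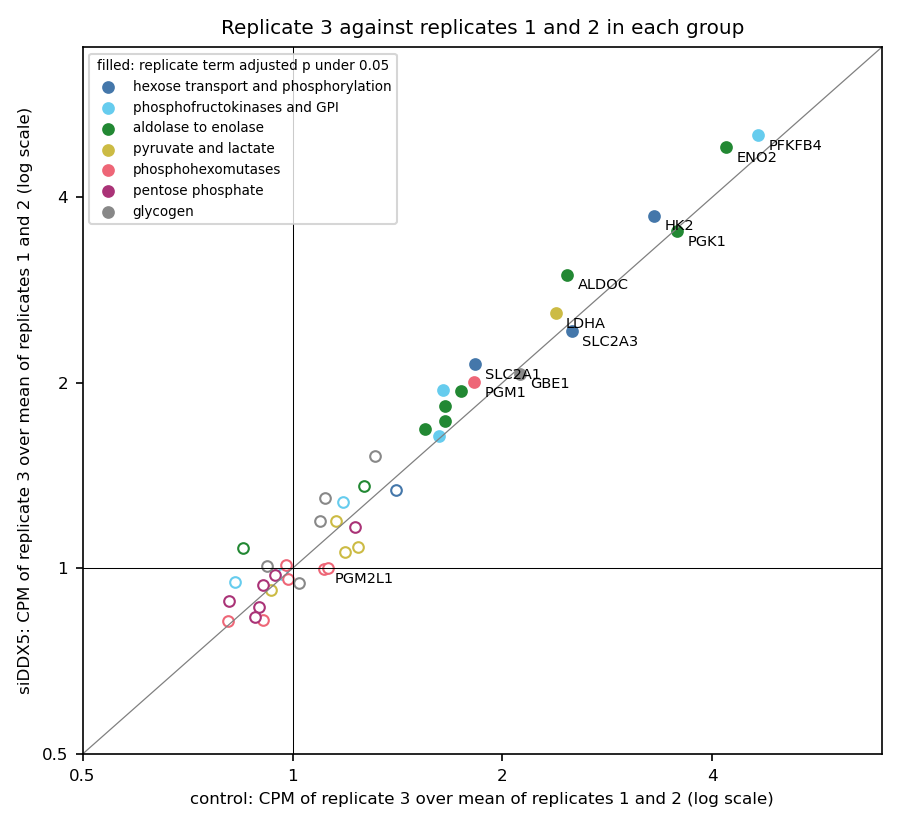
Each point is a tested gene, placed by the CPM of replicate 3 over the mean of replicates 1 and 2 in control (horizontal) and siDDX5 (vertical), on log axes and coloured by role, with filled points for an adjusted p of the replicate term under 0.05. The 16 filled points lie above 1 on both axes, up to 4.65 in control and 5.03 in siDDX5 for PFKFB4, while PGM2L1 lies near 1 on both.

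Because these members moved together, the windows of 250 bases before their RefSeq starts were searched for the letters ACGTG on either strand. These letters are a form of the core of the element bound by hypoxia-inducible factors. Other forms of the core, such as GCGTG, were not searched for. Capitals mark a match. The promoter of PFKFB4 (chr3:48556804-48557053, minus strand) is shown as the member with the greatest difference, and those of ENO2 (chr12:6914330-6914579, plus strand) and PGK1 (chrX:78103998-78104247, plus strand) for their matches, all in GRCh38.p14.
PFKFB4 promoter: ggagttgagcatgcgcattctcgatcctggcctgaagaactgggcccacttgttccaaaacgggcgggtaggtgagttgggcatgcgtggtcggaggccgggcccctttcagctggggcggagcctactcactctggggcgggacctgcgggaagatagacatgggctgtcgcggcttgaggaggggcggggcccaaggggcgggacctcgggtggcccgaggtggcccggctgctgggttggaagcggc
ENO2 promoter: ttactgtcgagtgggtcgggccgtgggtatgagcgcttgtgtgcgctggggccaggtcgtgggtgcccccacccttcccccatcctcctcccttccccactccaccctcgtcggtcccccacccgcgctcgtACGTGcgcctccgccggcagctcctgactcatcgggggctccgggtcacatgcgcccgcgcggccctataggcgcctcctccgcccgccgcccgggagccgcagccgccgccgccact
PGK1 promoter: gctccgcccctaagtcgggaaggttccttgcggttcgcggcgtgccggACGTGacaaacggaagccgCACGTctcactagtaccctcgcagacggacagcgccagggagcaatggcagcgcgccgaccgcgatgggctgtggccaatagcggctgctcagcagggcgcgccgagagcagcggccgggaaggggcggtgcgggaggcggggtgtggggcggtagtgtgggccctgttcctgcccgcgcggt
The PFKFB4 and PGM2L1 windows held no ACGTG, though both hold GCGTG. ENO2 held 1 match that starts 118 bases before the RefSeq start, and PGK1 held 2, at 202 and 183 bases before its own. Windows were found for 39 members. Among genes with 1 listed start, a match was present in 9 of 26 members (34.6%) and in 4077 of 22114 genes in all (18.4%). Of the 16 members called for the replicate term, 10 had 1 listed start, and 5 of these 10 (50%) held a match. HK2 and LDHA were called but were not among the 10. Of the members with 1 listed start that were not called, 4 of 16 (25%) held a match. The letters were chosen after the replicate 3 pattern had been seen, and the shares of called and uncalled members were not tested against each other. A match describes letters in this window and is not a binding site. A part of oxygen or of hypoxia-inducible factors in the replicate 3 pattern was not tested.

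Other genes of the pathway were read from 5 lists holding 89 genes, of which 76 were tested. None passed in the group comparison with edgeR, against 0.164% of all tested genes. An unadjusted p under 0.05 was found for 9, against 11.4% of all tested genes, and DESeq2 called 2. With the replicate block 2 were called, against 2.59% of all tested genes, both higher in siDDX5. They were PDHX, a structural part of the pyruvate dehydrogenase complex, and PPP1R3B, which targets a phosphatase to glycogen. PDHX was at 30.7, 28.0 and 34.5 CPM in control and 45.2, 47.3 and 49.0 CPM in siDDX5, without overlap (log2 fold change 0.60 ± 0.12 SE; adjusted p = 0.0796, and 0.0140 with the block, edgeR). The replicate term was called for 10 of the 76 (13.2%), against 3.44% of all tested genes, with 9 higher and 1 lower in replicate 3. PDK1, the kinase that switches pyruvate dehydrogenase off, was at 32.8, 31.3 and 116 CPM in control and 41.2, 34.5 and 144 CPM in siDDX5. The term was also called for PDK3, PPP1R3C, MPI, PPP1R3B, TXNIP and PDP1. In replicate 3 they were higher by 1.33, 1.88, 0.95, 0.70, 0.58 and 0.52 on the log2 scale. EGLN3 and EGLN1, oxygen-sensing hydroxylases that mark hypoxia-inducible factors for removal, were higher in replicate 3 by 1.58 and 1.48 on the log2 scale. EGLN2, the third of that family, was at -0.27 and lowest in replicate 3 of both groups (adjusted p of the replicate term 0.157, edgeR). EPAS1, which encodes a subunit of those factors, was lower, at -0.94 (adjusted p of the replicate term 0.0227, edgeR). HIF1A, its relative, was at -0.01 (adjusted p of the replicate term 0.956, edgeR). A part of oxygen in these values was not tested.

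Transcript choice was tested as a readout separate from gene level. PKM makes M1 and M2 pyruvate kinase by including 1 of 2 exons that exclude each other. The 2 exons are printed because the share of transcripts with each is what was measured. They lie on the minus strand of GRCh38, the M1 exon at chr15:72203022-72203188 and the M2 exon at chr15:72202454-72202620, and come from GENCODE 29 transcripts ENST00000319622.10 and ENST00000335181.9. Capitals mark the 62 of 167 bases at which they differ.
PKM M1 exon: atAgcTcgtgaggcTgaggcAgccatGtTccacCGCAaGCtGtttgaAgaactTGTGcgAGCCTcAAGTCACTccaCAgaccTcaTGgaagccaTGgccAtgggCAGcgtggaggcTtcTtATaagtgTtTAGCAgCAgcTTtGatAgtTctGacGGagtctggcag
PKM M2 exon: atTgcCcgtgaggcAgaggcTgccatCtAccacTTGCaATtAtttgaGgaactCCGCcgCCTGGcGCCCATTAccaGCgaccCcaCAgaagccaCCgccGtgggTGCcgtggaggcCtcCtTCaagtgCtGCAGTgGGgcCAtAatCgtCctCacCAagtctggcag
Among estimated counts on transcripts with exactly 1 of them (6 with M1, 4 with M2), the M1 share was 3.80%, 3.94% and 3.08% in control replicates 1, 2 and 3 and 2.51%, 2.64% and 2.09% in siDDX5. All siDDX5 values were below all control values, and the means were 3.60% and 2.41% (exact permutation test over libraries, two-sided, p = 0.1, the smallest that 3 against 3 can give). Without ENST00000561609, the transcript with most M1 counts, the shares were 1.36%, 1.58% and 1.16% in control and 1.31%, 1.51% and 1.13% in siDDX5 (exact permutation p = 0.7), and the groups overlapped. That 1 transcript held 1.94 ± 0.26% of PKM counts in control and 0.996 ± 0.115% in siDDX5 (SD, n = 3 each). Of the counts on transcripts with exactly 1 of the 2 exons, M2 transcripts made up 96.1% to 97.9% in the 6 libraries. Transcripts with neither exon were left out of these shares. Among them, ENST00000569857.5 held 6.93 ± 0.46% of PKM counts in control and 4.49 ± 2.48% in siDDX5 (SD, n = 3 each).

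Over all genes with at least 2 tested transcripts, usage changed for 170 of 10704 (1.59%), and for 1 of the 40 members tested, PFKM, the muscle phosphofructokinase (Simes adjusted p = 0.000707, edgeR). With the replicate block 129 genes (1.21%) were called, PFKM again among them (adjusted p = 0.0114). The transcript with the smallest p, ENST00000551339.6, had 37.9, 112 and 23.8 estimated counts in control replicates 1, 2 and 3 and was listed at 0 in every siDDX5 library. That was 1.92%, 7.60% and 1.64% of PFKM counts in control. Compared with the main transcript, ENST00000359794, its first exon ends 56 bases later and 21 of 23 exons are shared. Total PFKM did not pass the test, at 68.4 ± 8.36 CPM in control and 69.3 ± 2.18 CPM in siDDX5 (SD, n = 3 each; adjusted p = 0.971, edgeR). The transcript fell below a filter of 50 mean counts, under which PFKM was not called and GPI was. PKM was not called for usage in the main test (Simes adjusted p = 0.328, edgeR) or with the replicate block (Simes adjusted p = 0.163, edgeR). Reads shared by transcripts of a gene had been divided among them by estimation.

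**Figure D5:**
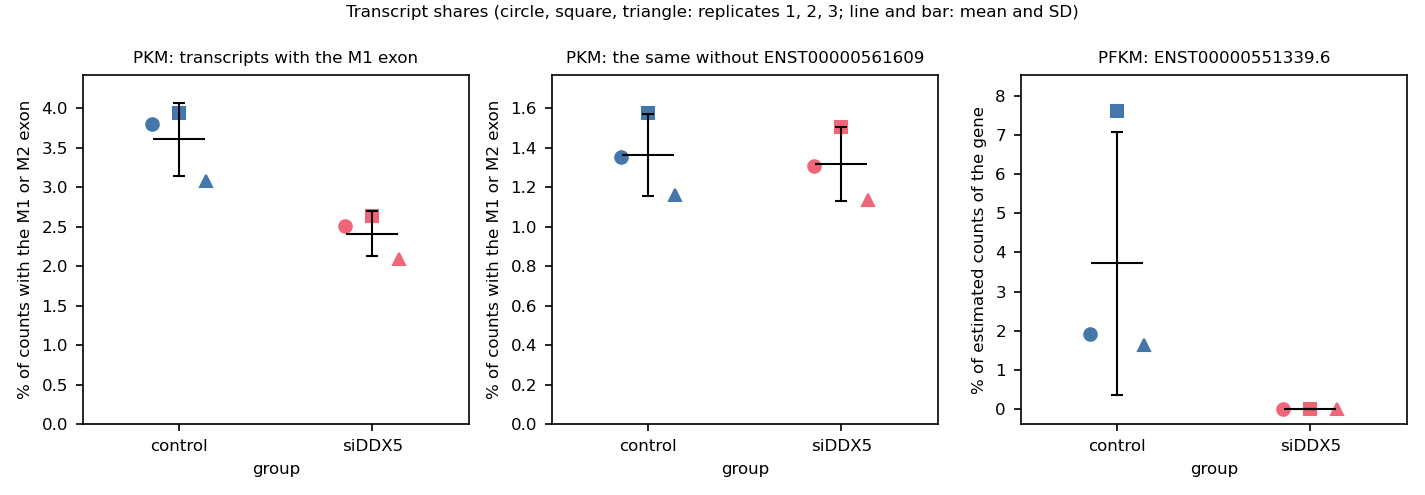
Percent of counts on PKM transcripts with the M1 exon (left), the same without ENST00000561609 (middle) and percent of PFKM counts on ENST00000551339.6 (right), for each library with the group mean and SD. The left groups do not overlap, the middle groups do, and the right values are 1.64% to 7.60% in control and 0 in siDDX5.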

How the data were processed

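Estimated counts, effective lengths and TPM values per transcript were deposited by the authors, 1 table per library, unnormalised for counts and scaled to 1 total for TPM. Per the submitters' processing notes the tools were bcl2fastq 2.20, FastQC 0.11.8, cutadapt 1.11 and kallisto 0.46.0, with build GRCh38. Transcripts (188753) were joined to GENCODE release 29 genes by identifier, by gene symbol (15315) or by position (890), and 2751 were left out. Estimated counts deposited by the authors were summed per gene, rounded, filtered with filterByExpr, scaled with TMM and tested with edgeR 4.0.16 (R 4.3.3), with group as the only term and Benjamini-Hochberg adjustment over all genes tested. Transcript usage was tested with diffSpliceDGE. SE is the size of a log2 change divided by the square root of its F statistic.

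The genes, lists and role groups were chosen with earlier results of these data known. Named with the value of every library were PGM2L1, any member with an adjusted p under 0.05 with or without the replicate block, any with at least 5 CPM, an unadjusted p under 0.05 and no overlap, and a fixed set of genes by name. The replicate term, the promoter search and the fits without both replicate 3 libraries were chosen after seeing the data. So was the PKM share without its main M1 transcript. Replicate numbers come from the sample titles, and same-numbered libraries deviated together (correlations 0.21, 0.27 and 0.58). Alternatives were DESeq2 1.42.0, its size factors, other filters, length-scaled counts, limma 3.58.1 on TPM, a GC correction, a join by identifier only and leaving out each library. Promoters are windows before RefSeq starts, which can lie inside the GENCODE span of a gene.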

Additional observations from a re-analysis of the deposited data

How the results depend on the processing

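The number of all genes called was 25 and became 323 with the DESeq2 Wald test, 136 without a filter, 2 on length-scaled TPM counts, 1 with limma-trend at either pseudocount (1 or 0.1 TPM), 394 with the replicate block, 555 with block and GC correction and 4 without both replicate 3 libraries. Leaving out 1 library gave 0 to 15. Members called were 0 with both limma-trend settings and 2 with the block, with or without GC correction, and 0 to 1 with 1 library left out. PGM2L1 stayed positive in all 18 settings, at 1.00 (limma-trend, pseudocount 1), 1.03 (pseudocount 0.1) and 1.06 to 1.15 with 1 library left out. The replicate block added SLC2A3 (log2 fold change 0.60) and changed no other member's call.

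Other pathway genes called were 2 with DESeq2, 1 without a filter, 2 with the block and 3 with block and GC correction, and 0 with any 1 library left out. Members with changed usage were 2 without a filter, 2 without both replicate 3 libraries and 1 to 3 with 1 library left out. The M2 share difference was 1.19 percentage points, 1.93 in TPM, 0.047 without the main M1 transcript and 1.02 to 1.46 with 1 library left out. Members called for the replicate term were 16, then 6 and 5 with limma-trend at pseudocounts 1 and 0.1 and 10 to 21 with 1 library left out. Genes called for it were 523, then 204 on length-scaled TPM counts, 50 and 37 with limma-trend, 319 with the identifier join and 401 to 2711 with 1 library left out.

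Members near 0 changed sign. With limma-trend (pseudocounts 1 and 0.1) log2 fold changes were -0.030 and -0.032 for HK2, -0.070 and -0.070 for PKM, -0.127 and -0.127 for LDHA, -0.013 and -0.013 for PGM1, -0.292 and -0.295 for PGM3 and -0.020 and -0.021 for UGP2. On length-scaled TPM counts they were -0.024 for PKM, -0.068 for LDHA and -0.240 for PGM3. LDHA was at -0.0054 with block and GC correction. Without both replicate 3 libraries SLC2A1 was at -0.063, HK2 at -0.056, LDHA at -0.026 and PGM1 at -0.046. With 1 library left out the ranges were -0.41 to 0.40 for SLC2A1, -0.26 to 0.070 for HK1, -0.87 to 0.88 for HK2, -0.065 to 0.26 for GAPDH, -0.080 to 0.14 for PKM, -0.57 to 0.59 for LDHA, -0.39 to 0.37 for PGM1, -0.038 to 0.10 for PGM3, -0.0045 to 0.17 for PMM1 and -0.030 to 0.10 for UGP2. The cause was not tested.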
